A study of Arabidopsis with 9 samples.

Results

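The pericentromeric regions of the 5 Arabidopsis chromosomes were examined in 14-day-old seedlings grown in long days. Their loci were chosen by position alone: a locus belonged if its start lay in 1:11500000-17700000, 2:1100000-7200000, 3:10300000-17300000, 4:1500000-6300000 or 5:9000000-16000000, in the TAIR10 coordinates of the authors' files. These intervals span 31.1 Mb and hold 7160 of the 31747 loci in the authors' deposited table, beside 24383 loci elsewhere on chromosomes 1 to 5 and 204 loci of the organelles. The labels give 9 RNA-seq libraries of untreated whole seedlings, 3 per genotype from separate biological replicates: wild type (WT) and the mutants syd-5 and swi3d-1. The mutations lie in genes of SWI/SNF complexes, which use ATP to move nucleosomes: the ATPase SYD and the core subunit SWI3D. The table's conditions are WT, syd-5 and another that no label names. Its name ends in 3d, it was not assigned to a genotype, and it is called the unlabelled condition. Each condition has 1 pooled level per locus, in FPKM, fragments scaled to length and library size. No value per library and no depth were given, so errors are known only through the authors' own tests against WT.

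Pericentromeres flank the centromeres and in Arabidopsis are packed largely as heterochromatin, dense in transposable elements and poor in genes. DNA methylation, methylation of histone H3 at lysine 9 and small RNAs keep most of these elements silent. Genes lying among them can still be active. RefSeq enters most Arabidopsis transposable element genes as pseudogenes, and neither that table nor the deposited one marks transposable elements, so the class is called pseudogene here.

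The pericentromeric loci were mostly pseudogenes, and most of them gave no signal in any condition. Pseudogenes made up 3747 of the 7160 loci (52.3%), against 4.04% of the other nuclear loci. Protein coding loci numbered 3111 (43.4%), non-coding RNA loci 129, and 173 had no matched name. Protein coding loci stood at 100 per Mb in the intervals and at 250 per Mb outside them. Listed at 0 FPKM in all 3 conditions were 4563 pericentromeric loci (63.7%), against 16.7% of the others. Coordinates that cover more than 1 locus were less common here, at 9.82% of loci against 28.7%.

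With 1 FPKM as the minimum for expression, 1565 pericentromeric loci (21.9%) were expressed in WT. Syd-5 had 1592 (22.2%) and the unlabelled condition 1589 (22.2%). Outside the intervals the shares were 66.3%, 66.9% and 66.8%. The gap between the regions was present in every condition, and the conditions lay within 1 percentage point of each other. Among protein coding loci alone the shares were 46.9%, 47.9% and 47.7% inside the intervals and 72.0%, 72.6% and 72.4% outside, so the gap was smaller but remained within this class. Pseudogenes were expressed at 56 of 3747 loci in WT (1.49%), with 60 for syd-5 (1.60%) and 59 for the unlabelled condition (1.57%). Elsewhere in the nucleus 8.22% of pseudogenes were expressed in WT, 9.63% in syd-5 and 9.23% for the unlabelled condition. Those pericentromeric loci that were expressed were not low: their median in WT was 14.4 FPKM, against 15.5 FPKM for the other expressed loci.

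The intervals differed among themselves. In WT the share expressed was 26.9% on chromosome 1, 18.8% on chromosome 2, 19.7% on chromosome 3, 19.9% on chromosome 4 and 24.2% on chromosome 5. Chromosome 2 also had the most pseudogenes for its length, 850 in 6.1 Mb. On chromosome 4 the density of protein coding loci was lowest, 82.9 per Mb, yet 51.8% of them were expressed in WT, beside 42.6% on chromosome 2 and 42.5% on chromosome 3. The order was much the same in the other conditions, with 19.2% in syd-5 and 18.8% for the unlabelled condition on chromosome 2, and 27.6% and 27.8% on chromosome 1.

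The share expressed was lower deeper in the intervals. In the 0.5 Mb just inside the bounds 39.8% of loci were expressed in WT, and between 3.0 and 3.5 Mb inside them 4.05% were. Protein coding loci went from 52.5% to 30.0% over the same distance, and pseudogenes from 21.7% to 86.7% of all loci. The deepest step held 444 loci, 50 of them protein coding. Only the 7.0 Mb intervals of chromosomes 3 and 5 span it in full, and the 4.8 Mb interval of chromosome 4 does not reach it. The chromosomes compared thus change with depth. Beyond the bounds the share was between 59.5% and 66.8% in every step of 0.5 Mb out to 5.0 Mb. Near the edges the contrast was mild: within 100 kb of a bound, 46.3% of 283 loci inside and 55.1% of 276 loci outside were expressed in WT.

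**Figure D1:**
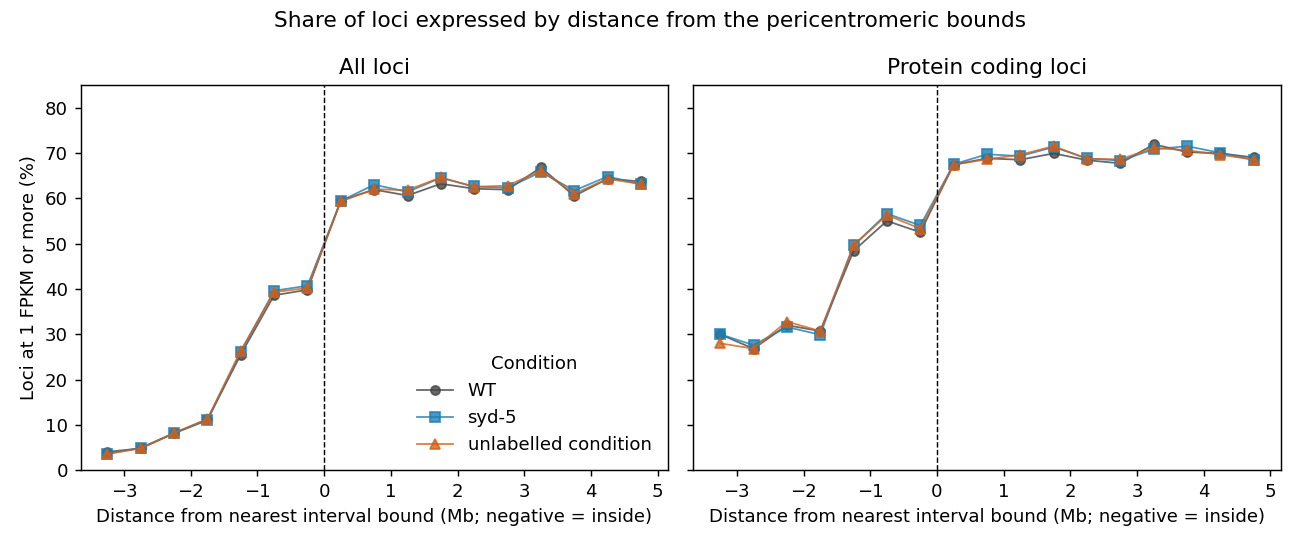
Share of loci at 1 FPKM or more (y axis, %) by distance from the nearest interval bound (x axis, Mb, negative inside), for all loci (left) and protein coding loci (right), with 1 line per condition. The lines of the 3 conditions nearly coincide, and in WT the share of all loci goes from 39.8% just inside the bounds to 4.05% in the deepest step.

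The mutated genes lie outside the intervals and served to check the labels. SYD was at 23.1 FPKM in WT, at 4.11 in syd-5 and at 24.3 in the unlabelled condition. SWI3D, listed in RefSeq as CHB3, was at 16.4, 16.0 and 3.81 FPKM in the same order. SYD was called lower in syd-5 alone, and SWI3D in the unlabelled condition alone. These levels match swi3d-1, the genotype left over, though no label makes that assignment. Of the markers for the seedlings' organs, 5 root genes had a summed level of 68.3 FPKM in WT, with 88.4 for syd-5 and 76.6 for the unlabelled condition. In syd-5 2 were called higher and 1 lower, and the unlabelled condition had 3 higher and 2 lower. The 4 leaf genes, which include the pericentromeric RBCS2B, summed to 20461, 14193 and 13874 FPKM, with 1 lower in each comparison and 2 higher in the unlabelled condition. Most of that sum was RBCS1A, at 16594, 12006 and 11514 FPKM and not called in either comparison. RBCS2B was the gene called lower. CAB3 (48.2, 81.5 and 99.7) and LHCA1 (222, 251 and 292) stood above WT in both other conditions, so the sum does not stand for all 4. No marker was at 0. In whole seedlings fewer cells of a type and less RNA per cell cannot be told apart, and the part of organ shares in the results below was not tested. The rRNA locus of chromosome 3 was listed at 679 FPKM in WT and at 0 in the other 2 conditions, but the authors' deposited table marks it as having too many reads to test, so the zeros are not taken as levels.

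Against WT, the pericentromeric loci of syd-5 changed in both directions about as often as all loci did. A locus was called where the authors' q was below 0.05, and that table calls 27.1% of the 19236 loci it tested in syd-5. Of the 7160 pericentromeric loci 1755 were tested, which needs enough reads, and 516 of those were called (29.4%). Called higher were 253, or 14.4% of those tested, against 13.6% in the whole table, and called lower were 263, or 15.0%, against 13.6%. For the unlabelled condition 510 of 1752 tested loci were called (29.1%, against 27.3% of the whole table). Of these 248 were higher (14.2%, against 13.4%) and 262 lower (15.0%, against 13.9%). Both comparisons use the same WT values. These shares lie near those of the whole table and are not a result about the region.

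Sizes were likewise close to those elsewhere. Over the 1654 pericentromeric loci that reached 1 FPKM in some condition, the median difference of log2(FPKM + 1) from WT was -0.003 in syd-5 and -0.036 for the unlabelled condition. The other nuclear loci gave 0.011 and -0.012. The middle 50% of pericentromeric loci lay between -0.26 and 0.26 in syd-5, and between -0.28 and 0.24 in the unlabelled condition. The median standard error implied by the authors' test statistic, on the log2 ratio, was 0.306 inside the intervals in syd-5 and 0.302 outside. These errors cover tested loci alone, which were 24.5% of the pericentromeric and 71.6% of the other nuclear loci. By chromosome the called share ran from 27.0% on chromosome 4 to 31.4% on chromosomes 1 and 3 in syd-5, and from 26.9% on chromosome 5 to 31.2% on chromosome 3 in the unlabelled condition. In syd-5 the other loci gave 28.2% on chromosome 4, 26.3% on chromosome 1 and 24.5% on chromosome 3. For the unlabelled condition they gave 27.3% on chromosome 5 and 26.2% on chromosome 3. In both comparisons the intervals of chromosomes 1, 2 and 3 lay above the other loci, and those of chromosomes 4 and 5 below. These differences were not tested.

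The direction of the calls differed with the WT level, inside the intervals as outside. Among pericentromeric loci at 1 to 5 FPKM in WT, 76 of 374 tested were called higher in syd-5 (20.3%) and 26 lower (6.95%). Other loci of that level gave 16.3% and 6.73%. Above 20 FPKM the order turned: 52 of 614 pericentromeric loci were called higher (8.47%) and 158 lower (25.7%), where the other loci gave 9.92% and 20.4%. For the unlabelled condition the pericentromeric shares were 20.1% higher and 7.75% lower at 1 to 5 FPKM, where the other loci gave 15.9% and 6.9%. Above 20 FPKM they were 8.63% higher and 24.8% lower, where the other loci gave 10.1% and 20.7%. The median difference above 20 FPKM was -0.12 in syd-5 and -0.14 for the unlabelled condition inside the intervals, and -0.06 and -0.09 outside. With the 3 conditions quantile normalized, which gives equal ranks equal levels and was applied here after the data were seen, these were -0.07 and -0.08 inside and -0.02 and -0.04 outside. The WT level sets the bin and also enters the comparison, so only the regions within a bin are set side by side. No test of that difference was made.

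**Figure D2:**
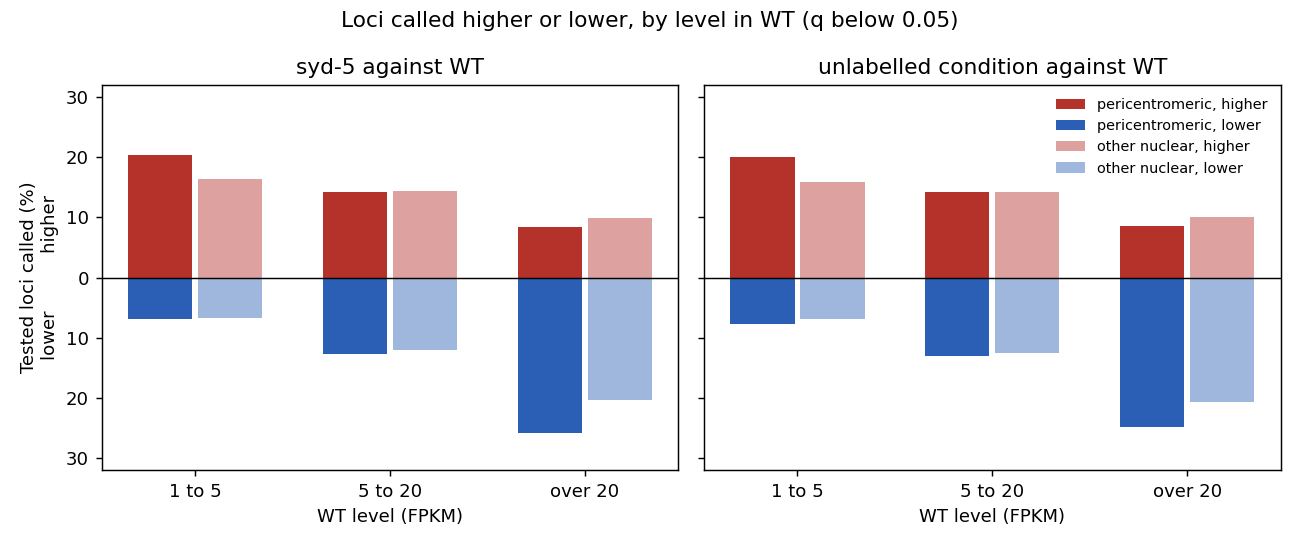
Share of tested loci called (y axis, %) by WT level (x axis, FPKM), upward bars for loci higher than WT and downward bars for loci lower, dark for pericentromeric and pale for other nuclear loci, with syd-5 on the left and the unlabelled condition on the right. Pericentromeric loci above 20 FPKM were called lower at 25.7% in syd-5 and 24.8% for the unlabelled condition, the longest bars in each panel.

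Silent pericentromeric loci stayed silent in nearly all cases. Of 5232 such loci under 0.1 FPKM in WT, 5 reached 1 FPKM in syd-5 and 7 for the unlabelled condition, or 0.0956% and 0.134%. Elsewhere in the nucleus 43 and 50 of 6009 loci under 0.1 FPKM did so, or 0.716% and 0.832%. The regions differ in class, with pseudogenes at 52.3% of all loci inside the intervals and 4.04% outside. No share within a class was taken. None of the pericentromeric loci that came on in syd-5 or the unlabelled condition was a pseudogene. AT3G43850 was listed at 0 FPKM in WT, at 3.83 in syd-5 and at 7.13 in the unlabelled condition, and was the only one of them called, in each comparison. NRT2.6, of the high-affinity nitrate transporter family, was listed at 0, 1.40 and 1.87 FPKM and was not called. In the other direction, leaving out the rRNA locus, 9 loci expressed in WT were under 0.1 FPKM in syd-5 and 8 for the unlabelled condition, of which 4 in each comparison were called. With the rRNA locus counted, these were 0.639% and 0.575% of the 1565 pericentromeric loci expressed in WT. Elsewhere in the nucleus 27 and 24 of 16165 did so, or 0.167% and 0.148%. The counts are small, and the difference was not tested. Among the pericentromeric ones AT4G03811, a non-coding RNA, went from 5.54 FPKM in WT to a listed 0 in syd-5, where it was called. It was at 0.244 in the unlabelled condition, where it was not called. A listed 0 can be a failed estimate, so no ratio is given for these loci.

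The highest levels in the intervals belonged to genes of the chloroplast and the cell wall. RBCS3B, RBCS2B and RBCS1B lie side by side on chromosome 5 and encode the small subunit of Rubisco, the enzyme that fixes carbon dioxide. RBCS3B was at 6725 FPKM in WT, at 3947 in syd-5 and at 3543 in the unlabelled condition, and was not called in either (q of 0.138 and 0.078 in the authors' deposited table). RBCS2B was at 3597, 1854 and 1968 FPKM and was called lower in both comparisons. RBCS1B was at 2843, 2224 and 2014 FPKM and was called lower in the unlabelled condition, while syd-5 did not pass. The 3 coding sequences are near-identical, so the authors' counting could have split their reads among them. GRP3S, a glycine-rich protein of the extracellular matrix, was at 5054 FPKM in WT, at 2322 in syd-5 and at 2560 in the unlabelled condition and was called lower in both. A merged locus of PSBX, a small photosystem II subunit, and VPS2.1, of the endosomal sorting machinery, was at 1787, 1132 and 1309 FPKM and was also called lower in both. These sizes rest on FPKM as deposited. Under quantile normalization a level is set by rank alone, so a locus that keeps its rank gets 0.00 whatever its fall. For loci this near the top it therefore cannot decide how large a fall was. Quantile normalization took the difference of log2(FPKM + 1) of RBCS3B from -0.77 in syd-5 and -0.92 for the unlabelled condition to 0.00 in each. That of RBCS1B went from -0.35 and -0.50 to 0.00 and -0.17, and that of RBCS2B from -0.96 and -0.87 to -0.38 and -0.47. GRP3S went from -1.12 and -0.98 to -0.55 and -0.33, and the merged locus of PSBX from -0.66 and -0.45 to -0.33 and -0.11.

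These 5 loci carried much of the drop in the regions' summed level, in FPKM as deposited. Without the 2 loci marked as having too many reads, the pericentromeric loci summed to 92658 FPKM in WT, with 76885 for syd-5 and 77639 for the unlabelled condition, which was 10.6%, 9.49% and 9.62% of the nuclear sum. The 5 held 20006, 11479 and 11394 FPKM of the pericentromeric sums in the same order. They accounted for 54.1% of the drop in syd-5 and 57.3% for the unlabelled condition. Without them the shares were 8.50%, 8.19% and 8.32%.

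The largest called rises included genes of cell wall growth, defence and primary metabolism. PHI-1, an EXORDIUM-like protein on chromosome 1 (12851997 to 12853128), rose from 3.06 FPKM (WT) to 54.9 (syd-5) and to 85.1 in the unlabelled condition. Its log2 ratios were 4.16 (implied SE 0.370) and 4.80 (implied SE 0.378), each with a q of 0.000567, the smallest in the authors' deposited table. EXO on chromosome 4 (5740297 to 5741524), the brassinosteroid-responsive EXORDIUM protein of leaf growth, rose from 34.6 FPKM to 325 and 413. EXLA1, an expansin-like protein, was at 4.29 FPKM in WT, at 25.3 in syd-5 and at 42.2 in the unlabelled condition, with wide implied SEs of 1.14 and 1.18. Its q in the authors' deposited table was 0.0184 in syd-5 and 0.00389 for the unlabelled condition. All these wall-related genes stood higher in the unlabelled condition than in syd-5, though that difference was not tested.

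PR1 on chromosome 2 (6241704 to 6242463), the standard marker of salicylic acid responses, rose from 29.9 FPKM (WT) to 201 (syd-5) and to 138 in the unlabelled condition. THI2.2, a thionin, rose from 1.76 FPKM to 8.98 and 10.8. FAMT, a farnesoic acid methyltransferase, rose from 0.913 FPKM to 9.29 and 5.23. AT5G39580, a peroxidase, rose from 2.54 FPKM to 13.9 and 15.7. These defence-related genes were low in WT except PR1.

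ERD5 on chromosome 3 (12448636 to 12451248), the proline dehydrogenase that breaks down proline, rose from 83.3 FPKM (WT) to 471 (syd-5) and to 591 in the unlabelled condition. SUS4, a sucrose synthase, rose from 1.89 FPKM to 10.1 and 5. FTM1, a stearoyl-ACP desaturase, rose from 5.36 FPKM to 57.8 and 32. The remaining rises of the leading set were AT3G28510, a predicted ATPase, from 2.08 FPKM to 16.3 and 7.95, AT3G28220 from 2.58 to 9.25 and 19.9, and AT2G16005 from 1.90 to 10.1 and 9.37.

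Iron, sulfur and phosphate genes stood among the largest falls. AT1G47395 and AT1G47400, neighbours on chromosome 1 with 2.31 kb between them, encode IRON MAN peptides, short signals of iron deficiency. AT1G47395 fell from 35.3 FPKM (WT) to 2.28 (syd-5) and to 2.74 in the unlabelled condition. AT1G47400 was at 20, 0.552 and 0.310 FPKM, and its q in the authors' deposited table was 0.0166 in syd-5 and 0.142 for the unlabelled condition, so the lowest of the 3 levels was not called. IRT1, the root iron transporter and a non-member among the root markers, was at 10.6 FPKM in WT, at 0.801 in syd-5 and at 0.803 in the unlabelled condition and was called lower in both. APR1 on chromosome 4, which reduces activated sulfate, fell from 86.0 FPKM to 19.9 and 20.2. MGDC, a galactolipid synthase induced by phosphate starvation, fell from 15.0 FPKM to 3.10 and 4.08, and AT5G26220, a gamma-glutamyl cyclotransferase of glutathione breakdown, from 10.7 to 3.37 and 1.49.

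NAC6 on chromosome 5 (15858400 to 15859788), the senescence regulator also known as ORE1, fell from 61.7 FPKM (WT) to 8.69 (syd-5) and to 11 in the unlabelled condition. The rising peroxidase AT5G39580 lies 9.29 kb from it. PRB1, a basic relative of PR1, fell from 20.8 FPKM to 2.96 and 1.95, although it lies 15.5 kb from PR1, which rose. AT4G07820, of the same protein family as PR1, fell from 16.0 FPKM to 2.78 and 6.67. CYP81D11, a jasmonate-responsive cytochrome P450, fell from 158 FPKM to 45.0 and 37.1, and XTH31, a xyloglucan-modifying wall enzyme, from 144 to 43.3 and 28.9. AT5G35480, AT2G14247 and AT4G08555 fell from 18.7, 27.1 and 59.3 FPKM in WT to 2.20, 4.57 and 14.7 in syd-5 and to 3.55, 3.86 and 12.8 in the unlabelled condition.

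**Figure D3:**
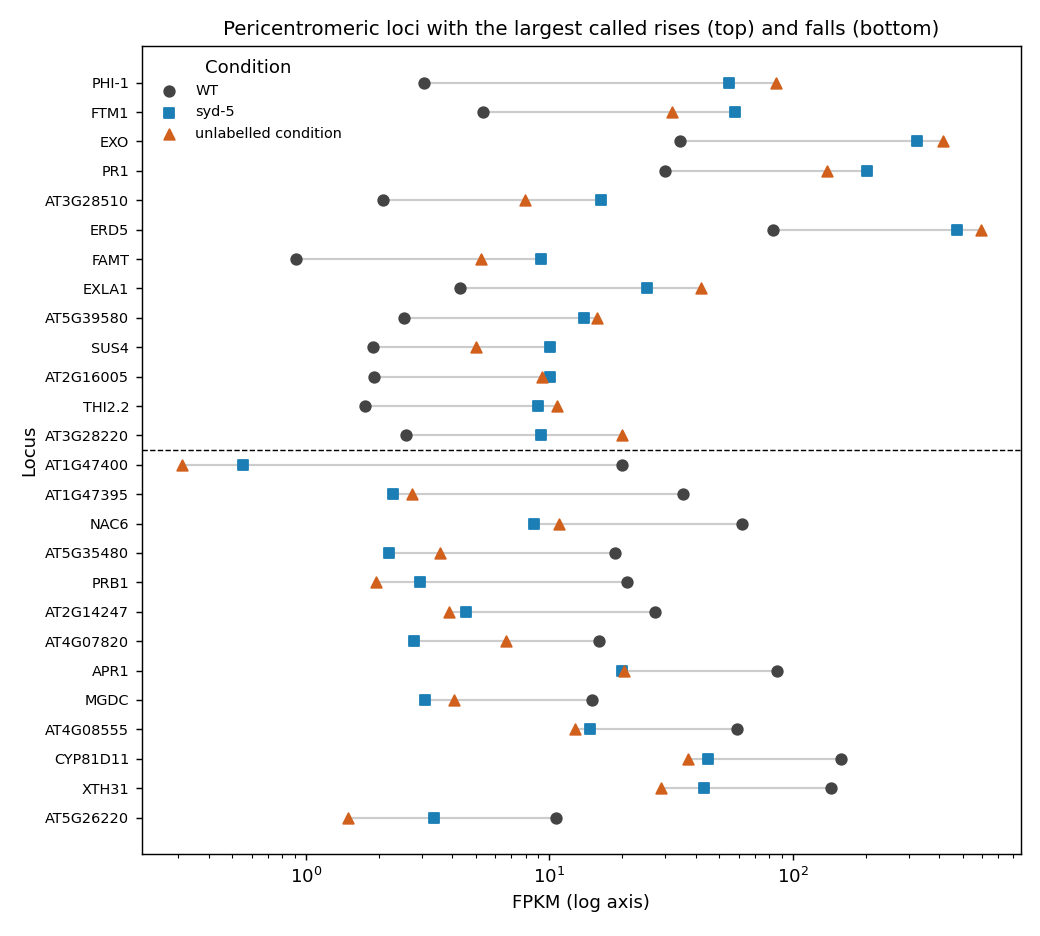
Pooled level (x axis, FPKM, log axis) of the leading called pericentromeric loci (y axis), 1 point per condition with a grey line over their range, 13 rises above the dashed line and 13 falls below it. Loci were chosen by the size of the difference in either comparison, and the set spans levels from 0.310 FPKM for AT1G47400 in the unlabelled condition to 591 FPKM for ERD5 in the unlabelled condition.

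Pseudogenes, the main class in the regions, were rarely measurable. Of 3747, 3273 were listed at 0 in every condition, 65 reached 1 FPKM in some condition and 80 were tested in syd-5 and 76 for the unlabelled condition. In syd-5 16 of the 80 were called higher (20%, against 13.6% of the whole table) and 6 lower (7.50%, against 13.6%). In the unlabelled condition 15 of the 76 were called higher (19.7%, against 13.4%) and 4 lower (5.26%, against 13.9%). Pseudogenes outside the intervals had 21 higher (17.9%) and 2 lower (1.71%) of 117 tested in syd-5, and 19 higher (16.4%) and 4 lower (3.45%) of 116 in the unlabelled condition. The difference between the regions was not tested. The median difference over the 65 expressed pericentromeric pseudogenes was 0.14 in syd-5 and 0.12 for the unlabelled condition. Expressed pseudogenes outside the intervals gave 0.18 and 0.14. The whole table is an unlike background, since pericentromeric pseudogenes expressed in WT had a median of 3.84 FPKM. Pericentromeric loci of every class at 1 to 5 FPKM in WT gave similar shares. They were 20.3% higher and 6.95% lower in syd-5, and 20.1% and 7.75% for the unlabelled condition. That bin includes pseudogenes and is not matched to the called ones by level. Those called higher lay between 0.475 and 30.0 FPKM in WT, so many were outside it. Whether the WT level accounts for their direction was not tested. Reads shared with near-identical copies may have been split among them.

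The largest rise among them was AT5G35935 on chromosome 5 (14083388 to 14090158), from 0.588 FPKM (WT) to 4.62 (syd-5) and to 5.15 in the unlabelled condition. AT3G28160 on chromosome 3 rose from 14.5 FPKM to 28.2 and 37.8, and AT2G06950 on chromosome 2 from 14.7 to 28.0 and 32.8. AT3G30875 rose from 1.42 FPKM to 4.10 and 4.25, AT3G42806 from 2.40 to 5.11 and 4.90, and AT2G11240 from 30.0 to 52.4 and 55.4. None of the 16 was under the near-silent limit of 0.1 FPKM in WT, the lowest being AT2G15060 at 0.475 FPKM. Some did cross the 1 FPKM minimum for expression. AT2G15060, AT1G34044, AT5G35935, AT5G35777, AT1G43886 and AT2G13910 were under it in WT and over it in both other conditions. Among the falls AT1G43590 went from 7.77 FPKM to 2.51 and 1.93, AT2G04460 from 11.3 to 3.99 and 7.14, and AT4G04410 from 4.10 to 1.23 and 1.63. The neighbours AT2G05030 and AT2G05040 were at 1.95 and 2.93 FPKM in WT and under 0.1 FPKM in the other 2 conditions. AT2G05040 was called lower in syd-5 and AT2G05030 in the unlabelled condition. MUG8, of the transposase-derived MUSTANG family, was at 11.3, 8.52 and 9.30 FPKM and was called lower in syd-5. The pseudogene with the highest level, SADHU1-1 of the Sadhu retroelements, was at 148 FPKM in WT and 119 in each of the others and was not called.

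**Figure D4:**
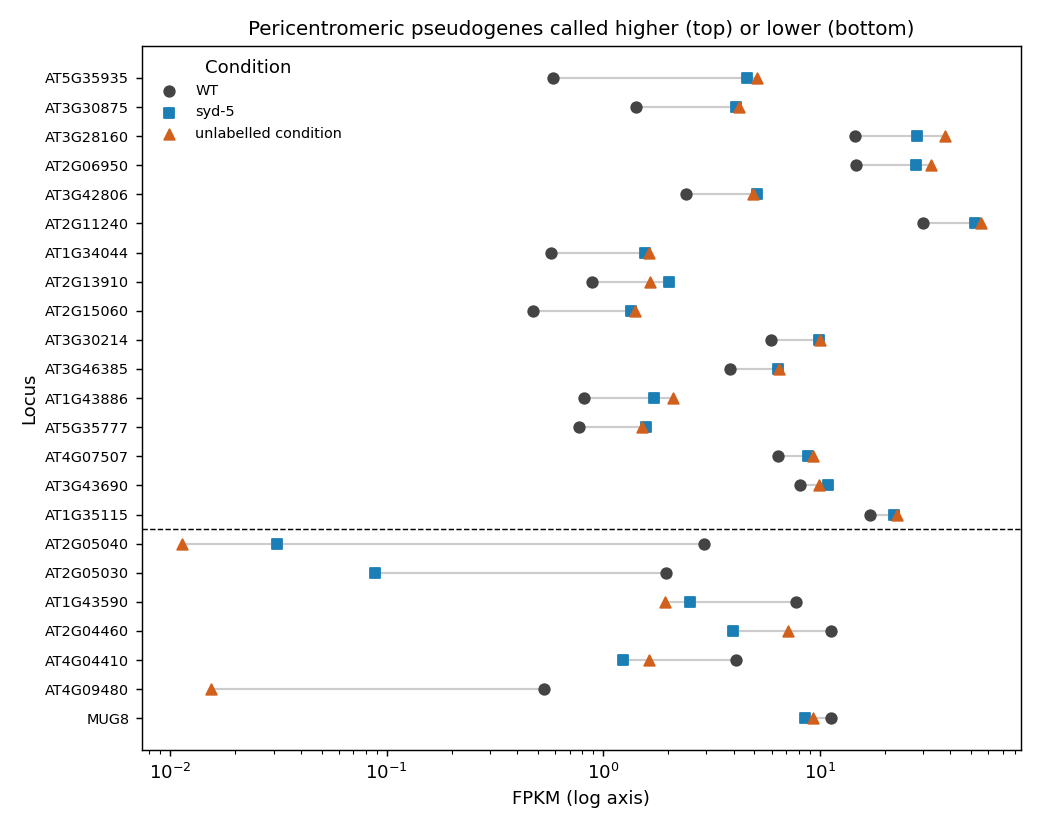
Pooled level (x axis, FPKM, log axis) of each pericentromeric pseudogene called in at least 1 comparison (y axis), 1 point per condition with a grey line over their range, 16 higher above the dashed line and 7 lower below it. A value of 0 is not drawn, as for AT2G05030 in the unlabelled condition and AT4G09480 in syd-5, and AT5G35935 shows the widest rise, from 0.588 to 5.15 FPKM.

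Lists of pericentromeric genes with known roles, drawn up with earlier results of these data known, gave mixed directions. Their counts stand beside a whole table in which 13.6% of tested loci were higher and 13.6% lower in syd-5, and 13.4% higher and 13.9% lower for the unlabelled condition. The lists are short, and their counts were not tested against these shares. Of 10 photosynthesis and chloroplast genes, 4 were called lower and 0 higher in syd-5 (6 and 0 at an unadjusted p below 0.05), with a median difference of -0.42 against -0.003 over all pericentromeric loci. In the unlabelled condition 3 were lower and 1 higher, with a median of -0.33. Quantile normalization, added for this list after the data were seen, gave medians of -0.12 and -0.14. Beside RBCS2B, the genes lower in syd-5 were CH1, which makes chlorophyll b (at 11.5 FPKM in WT, at 5.96 in syd-5 and at 9.30 in the unlabelled condition), GS2, the plastid glutamine synthetase (1196, 852 and 915), and the merged locus of ACD1, which opens the chlorophyll ring during breakdown (96.5, 56.5 and 58.9). PSBQ-2, of the oxygen-evolving complex, was at 300, 351 and 432 FPKM and was called higher in the unlabelled condition. LHCB2.1 and LHCB2.2, closely similar light-harvesting proteins, were at 13.7 and 5.79 FPKM in WT and were not called.

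Of 16 loci of defence and jasmonate genes, 3 were called higher and 5 lower in syd-5 (13.6% each way in the whole table), and 4 higher and 6 lower in the unlabelled condition (13.4% and 13.9%). The myrosinases, which release toxic products from glucosinolates, parted: TGG1 fell from 1265 FPKM (WT) to 595 (syd-5) and to 779 in the unlabelled condition, while its neighbour TGG2 was at 156, 186 and 253 and was called higher in the unlabelled condition. The resistance gene RPP1 fell from 26.0 FPKM to 16.5 and 16.8, whereas RPP13 was at 33.6, 27.7 and 32.6 and was not called. CBP60G, an activator of salicylic acid synthesis, fell from 12.6 FPKM to 6.29 and 6.97. MYC2, the main transcription factor of jasmonate responses, was at 17.8, 18.8 and 28.0 FPKM and was called higher in the unlabelled condition. The merged locus of the nitrilases NIT1 and NIT2 fell from 583 FPKM to 374 and 351.

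Stress and nutrient genes numbered 17, of which 4 were called higher and 6 lower in syd-5 (13.6% each way in the whole table), and 2 higher and 7 lower in the unlabelled condition (13.4% and 13.9%). HB1, a haemoglobin induced by low oxygen, rose from 19.6 FPKM (WT) to 52.0 (syd-5) and to 31.4 in the unlabelled condition. ABF2, a transcription factor of abscisic acid responses, fell from 22.4 FPKM to 14.7 and 14.9, and GORK, a potassium channel of guard cells, from 3.79 to 2.47 and 2.56. HSP17.4, a small heat shock protein, was at 0.248, 8.48 and 1.27 FPKM and was not called, with an implied SE of 3.30 in syd-5. Of 14 light, clock and development genes 12 were tested, with 3 higher and 4 lower in syd-5 and 2 higher and 5 lower in the unlabelled condition, beside the same whole-table shares. PCL1, the clock gene also known as LUX, rose from 24.0 FPKM to 42.9 and 51.3. KNAT1, a homeobox gene of the shoot meristem, fell from 8.22 FPKM to 4.66 and 4.21, and BR6OX2, a brassinosteroid synthesis enzyme, from 18.2 to 13.5 and 12.6. CRY1, the blue light receptor, was at 60.3, 53.0 and 58.1 FPKM and was not called.

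The auxin response factor cluster of chromosome 1 was nearly silent. ARF12, ARF13, ARF14, ARF15, ARF21 and ARF22 were listed at 0 FPKM in every condition. The merged locus that holds ARF20 was at 5.23 FPKM in WT, at 7.48 in syd-5 and at 11.4 in the unlabelled condition, where it was called higher. For the silencing machinery of heterochromatin, 24 genes of which DCL3 alone lies in the intervals, 0 were called higher in the authors' Cuffdiff test, 2 were lower in syd-5 and 4 lower in the unlabelled condition, where the whole table had 13.6% and 13.9% of tested loci lower. At an unadjusted p below 0.05 the counts were 0 higher and 4 lower in syd-5, and 1 higher and 8 lower in the unlabelled condition. DCL3, which cuts the small RNAs that direct DNA methylation, was at 3.17, 3.70 and 3.55 FPKM and was not called. The lower genes in syd-5 were ATXR6, a histone methyltransferase of heterochromatin (at 2.66 FPKM in WT, at 1.2 in syd-5 and at 1.40 in the unlabelled condition), and NRPD1B, the largest subunit of RNA polymerase V (4.36, 3.06 and 3.18), and these fell in the unlabelled condition as well. MET1, which maintains DNA methylation, was at 14.6, 13.0 and 9.99 FPKM and was lower in the unlabelled condition, as was the linker histone gene AT1G06760 (208, 177 and 159).

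Neighbouring genes were sometimes called the same way. After the values were seen, runs were defined as at least 3 consecutive tested loci called in 1 direction in both comparisons, which share WT. There were 11 such runs in the intervals, 4 higher and 7 lower, holding 38 loci or 9.27% of those called in both, against 7.40% elsewhere. The longest, on chromosome 5, held 5 loci over 35.9 kb that were all higher, from AT5G26260 (at 51.6 FPKM in WT, at 93.7 in syd-5 and at 82.0 in the unlabelled condition) to UGT72E3, a glucosyltransferase of lignin precursors (2.79, 4.80 and 4.84). On chromosome 2, 4 efflux transporter genes of the MATE family, AT2G04050, AT2G04080, AT2G04090 and AT2G04100, rose from levels of 2.08 to 3.94 FPKM in WT to between 4.53 and 8.21 in syd-5. Glycine-rich protein genes of chromosome 2 fell together: beside GRP3S, GRP9 was at 283, 158 and 173 FPKM and AT2G05510 at 223, 61.2 and 75. Their neighbour GRP-3 was at 1600, 946 and 1199 FPKM and was called lower in syd-5 alone, with a q of 0.0522 in the unlabelled condition in the authors' deposited table. The UMAMIT transporters UMAMIT41 and UMAMIT46 of chromosome 3 fell from 77.7 and 19.5 FPKM to 43.1 and 8.04 in syd-5 and to 42.7 and 6.09 in the unlabelled condition.

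Another family moved in both directions. In the UGT76E cluster of chromosome 3, which encodes glucosyltransferases, UGT76E11 fell from 18.0 FPKM (WT) to 4.40 (syd-5) and to 4.09 in the unlabelled condition. Farther along the cluster AT3G46700 rose from 5.30 FPKM to 20.8 and 19.7, AT3G46690 from 3.57 to 8.06 and 5.91, and AT3G46720 from 2.80 to 5.99 and 5.69. UGT76E12 lay between 1.30 and 3.40 FPKM and was not called. Genes of such families resemble each other in sequence, so reads may have been split among them.

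A copy of the mitochondrial genome lies in the chromosome 2 interval (3200000 to 3600000). Reads of the copied sequence may come from the organelle, while the window also holds ordinary nuclear genes. Of the 137 loci there, 95 were listed at 0 in every condition, and 5 were expressed in WT, 6 in syd-5 and 5 for the unlabelled condition. Tested were 8, of which 3 were called in syd-5 and 2 for the unlabelled condition. Nuclear genes near the end of the window, ABCC13 (start 3514702) and MCM5 (start 3523163), gave 2 of the 3 calls in syd-5 and both for the unlabelled condition. ABCC13, an ABC transporter, rose from 3.51 FPKM (WT) to 6.94 (syd-5) and to 7.02 in the unlabelled condition. MCM5, a subunit of the replicative helicase, fell from 13.8 FPKM to 9.68 and 8.02.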

How the data were processed

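Paired reads were obtained from total RNA of 3 biological replicates per genotype, per the labels' protocols. TopHat2 2.1.1, Cufflinks 2.1.1 and Cuffdiff 2.1.1 are listed with the TAIR10 genome in the submitters' processing notes. Their settings, and whether libraries kept strand, were not given in the sources used here. Reads of overlapping and antisense genes can therefore be mixed. Per the file headers, the deposited FPKM values hold 1 level per condition over its libraries. The test statistic (a score), the p-value and the q-value are the authors' own, per the file headers. A call needs a tested status and q below 0.05. The limma model planned for values per library could not be used, because levels are pooled.

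Differences are of log2(FPKM + 1), a scale on which low loci change less. Log2 ratios have no pseudocount, and their implied standard error is the ratio over the statistic. A normal deviate from p was in the median 1.74 times that statistic, so the errors behind q are smaller. Locus starts were raised by 1. Of 7213 identifiers in the intervals, 7087 matched RefSeq TAIR10.1, used for symbols and classes. Of a gene at several loci, the locus of highest mean FPKM was used. Scripts ran in Python 3.11.15 with pandas 2.3.3 and were tested on simulated data.

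The members were chosen by position, and the gene lists with earlier results of these data known. Named are, per comparison, the 10 largest called rises and falls at a mean of at least 5 FPKM, the largest per chromosome, the 5 highest WT levels, the 6 largest called pseudogenes each way and list members. Neighbour runs, gene families, loci crossing the near-silent limit and other pseudogenes were chosen after their values were seen. Alternatives were other FPKM limits, a pseudocount of 0.1, q below 0.01, a minimum fold, quantile normalization, narrower intervals and subsets of loci.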

Additional observations from a re-analysis of the deposited data

How the results depend on the processing

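The called counts of 516 in syd-5 and 510 for the unlabelled condition changed by over 1.5 times under 2 alternatives. Called and also doubled or halved were 122 of 1755 tested loci in syd-5 and 115 of 1752 for the unlabelled condition. Other nuclear loci had 605 doubled and 524 halved of 17448 tested in syd-5, and 624 and 510 of 17450 for the unlabelled condition. Intervals shortened by 500000 bases at each end held 330 called of 1154 tested (28.6%) and 320 of 1152 (27.8%). Those shares lie near the 29.4% and 29.1% of the full intervals. Over loci that share their coordinates with no other, the called share was higher. It was 440 of 1263 tested in syd-5 (34.8%) and 435 of 1261 for the unlabelled condition (34.5%). The called share of other nuclear loci was not taken under that alternative. For the shares expressed, values are for WT, syd-5 and the unlabelled condition in that order. The pericentromeric share expressed was 26.9%, 27.4% and 27.5% at 0.1 FPKM, 23.6%, 24.0% and 24.1% at 0.5 FPKM, and 16.6%, 17.0% and 16.8% at 5 FPKM. It was 20.7%, 21.1% and 21.0% over loci with 1 gene name and 46.9%, 47.9% and 47.7% over protein coding loci. It was 17.7%, 17.9% and 18.0% in shortened intervals, and 17.5%, 17.8% and 17.7% over loci that share their coordinates with no other, an alternative chosen after seeing the data. With a filter of 5 FPKM the median difference was -0.028 in syd-5 and -0.055 for the unlabelled condition, and with no filter it was 0.000 in the unlabelled condition. Near-silent loci that came on numbered 21 in syd-5 and 23 for the unlabelled condition with a WT limit of 0.5 FPKM, and 0 and 1 with 5 FPKM needed outside WT. Signs were checked for 109 single loci, and none of their called values changed sign under quantile normalization. Another pseudocount or q limit cannot change a sign. The median of -0.003 in syd-5 was 0.003 over loci with 1 gene name and 0.018 in shortened intervals. There 180 of 1154 tested loci were called higher and 150 lower in syd-5, and 171 and 149 of 1152 for the unlabelled condition. Under quantile normalization 3 uncalled values changed sign: NIR1 from -0.06 to 0.05 in the unlabelled condition, and in syd-5 AGL44 from 0.04 to -0.02 and STK from 0.01 to -0.03. It also shrank the falls of the highest loci, the RBCS genes and GRP3S among them, where an unchanged rank gives 0.00 by construction. Among the single loci, q below 0.01 ended 32 calls. No paired analysis was possible because each condition has 1 pooled value, and for the same reason leaving out each replicate was not run. Depth is unknown, so no detection limit can be given.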
